A study of Mus musculus with 4 samples.

Results

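Melanocytes, the pigment cells of the skin, were examined in single-cell transcriptomes of adult mouse epidermis after deletion of ΔNp63, the Trp63 isoform of basal keratinocytes. They were chosen by their own marker genes. A barcode counted as a melanocyte if it held 1000 or more unique molecular identifiers (UMIs, the count of captured transcripts) and at most 15% mitochondrial UMIs. It also had to carry 3 or more UMIs of Dct, Pmel, Mlana, Tyrp1 and Tyr together, from at least 2 of these 5 genes, and no UMI of the leukocyte gene Ptprc. This gave 271 melanocytes among 94895 barcodes that passed the depth and mitochondrial limits. There were 88 in the 1-day control, 72 in the 1-day deleted, 74 in the 1-week control and 37 in the 1-week deleted library. The selection used the transcripts of these same barcodes, so the values of the 5 marker genes are given as a description.

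Melanocytes derive from the neural crest and make melanin in melanosomes, organelles related to lysosomes, which they pass to keratinocytes. MITF, with SOX10 and PAX3, drives the pigment genes, and the receptors KIT and EDNRB receive KIT ligand and endothelins from neighbouring keratinocytes and dermal cells. In mouse skin most melanocytes sit in hair follicles, where melanocyte stem cells in the bulge and hair germ supply pigment cells to each growing hair. Tyrosinase, TYRP1 and DCT catalyse steps of melanin synthesis, PMEL forms the fibrils on which melanin is laid down, and MLANA is a melanosome membrane protein.

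The control mice carried floxed ΔNp63 alleles without Cre (DNp63fl/fl), and the deleted mice carried the same alleles with a tamoxifen-inducible Cre (DNp63fl/fl;K14-CreT2). Both genotypes received tamoxifen at 200 mg/kg by gavage on each of 5 days, and epidermis was collected 1 day or 1 week afterwards. The K14 promoter is active in basal keratinocytes, not in melanocytes as a rule, so the deletion was directed at the neighbours of the cells described here. Mice were 2 to 17 months old with equal numbers of each sex, and epidermis was released with 0.25% trypsin at 4 or 37 °C. Which ages and which digestion went into each library is not given in the sources used here. A 3′ kit was used at 1 day and a 5′ kit at 1 week, so the times are described apart. Each of the 4 groups was 1 library, hence differences have no replicate check and no p-value is given. Intervals are 95% exact intervals for counting error only, and they leave out any variation between mice.

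Total UMIs ran from 68191870 to 179736563 per library over 18413 to 33552 deposited barcodes. The lowest depth deposited was 500 UMIs in both control libraries, 1368 in the 1-day deleted and 1059 in the 1-week deleted library. Outside the melanocytes Trp63, the targeted gene, had 391 counts per 1e6 UMIs (CPM) in 1-day control barcodes and 113 in those of the deleted library. The 1-week values outside the melanocytes were 420 CPM in the control and 140 in the deleted library. Whether the counted part of Trp63 lies in the floxed part was not examined. In the melanocytes the summed Trp63 level was 351 CPM in the 1-day control (205 UMIs in 43 cells) and 165 CPM in the 1-day deleted library (59 UMIs in 23 cells). At 1 week it was 325 CPM in control melanocytes (56 UMIs in 24 cells) and 265 CPM in the deleted library (67 UMIs in 10 cells). Libraries of the 1-day pair shared 299 barcode sequences and those of the 1-week pair 661, and no melanocyte barcode was shared.

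For 3 of the 5 selection genes a promoter window with the short sequence CATGTG was found. The sequence is shown here because MITF, the master regulator of melanocytes, is known to read these letters. CATGTG was searched on both strands in the 250 bases before each start in RefSeq promoters of GRCm38.p6. It stood in 4025 of 32851 windows, or 12.2%. The 3 genes are Dct, Tyrp1 and Tyr, and no match was listed for Pmel or Mlana. In the lines below capitals mark CATGTG or its reverse complement CACATG, and each run is read 5′ to 3′ on the strand of its gene.
Dct, chr14:118052379-118052408, minus strand: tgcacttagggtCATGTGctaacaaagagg
Dct, chr14:118052461-118052490, minus strand: gcttggctgggaCACATGagcccaataaag
Tyrp1, chr4:80834155-80834184, plus strand: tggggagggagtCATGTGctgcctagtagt
Tyr, chr7:87493516-87493545, minus strand: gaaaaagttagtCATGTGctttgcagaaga
The motif began 150 and 232 bases before the start of Dct, 46 before Tyrp1 and 21 before Tyr, counted from the RefSeq start. GENCODE starts Tyrp1 further upstream, so by that annotation the Tyrp1 line lies inside the gene. The first Dct line, Tyrp1 and Tyr share the 10-base run GTCATGTGCT, a longer match found after the windows had been read, which stood in 51 windows (0.155%). A match describes the letters only and shows no binding.

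The genes themselves lie apart in the genome (GENCODE M21 on GRCm38). Dct spans chromosome 14 from 118012790 to 118052244, Tyrp1 chromosome 4 from 80834123 to 80851719 and Tyr chromosome 7 from 87424771 to 87493512. Pmel lies on chromosome 10 from 128704195 to 128720238 and Mlana on chromosome 19 from 29697824 to 29708634.

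Genes outside the selection were used to check that the barcodes were melanocytes. There were 8 such genes, among them Ptgds (prostaglandin D synthase), Pax3, Kit, Mitf, Sox10, Ednrb and Gpnmb (a melanosome glycoprotein). At least 2 of these were detected in 75 of 88 melanocytes of the 1-day control and in 61 of 72 of the 1-day deleted library. At 1 week the counts were 35 of 74 in the control and 30 of 37 in the deleted library. Among all other barcodes the share was 0.454%, 0.214%, 1.40% and 0.853% in the same order, so the label fitted most barcodes in 3 libraries and under 1 in 2 in the 1-week control.

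The weaker barcodes carried few marker UMIs. With 10 or more marker UMIs, 51 of 57, 24 of 26, 21 of 21 and 24 of 24 melanocytes had at least 2 of the 8 independent genes, in library order from the 1-day control to the 1-week deleted. With 3 or 4 marker UMIs it was 2 of 4, 19 of 27, 9 of 44 and 0 of 7. The 1-week control held 44 such barcodes among 74, and their median keratin content (Krt1, Krt5, Krt10, Krt14 and Krt15) was 2.43% of UMIs against 0.0405% in its melanocytes with 10 or more. The same 2 medians were 1.225% and 0.539% in the 1-day control and 1.99% and 0.0600% in the 1-week deleted library. In the 1-day deleted library they were close, at 0.878% and 0.825%, so its strongly marked melanocytes carried keratin RNA too. Just inside the selection were 2, 14, 29 and 6 barcodes with exactly 3 UMIs over at least 2 genes, of which 0, 3, 8 and 2 had 3 genes. Just outside it were 9, 15, 60 and 34 with 2 UMIs over 2 genes. Over all other barcodes the median keratin content was 1.67%, 1.17%, 2.49% and 1.75% in library order. The 44 weakly marked barcodes of the 1-week control, at 2.43%, thus lay near the other barcodes of their library. Melanocyte values of the 1-week control therefore combined strongly marked cells with barcodes close to the limit and rich in keratin RNA. Differences at 1 week compare sets that are unlike in this respect.

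**Figure D1:**
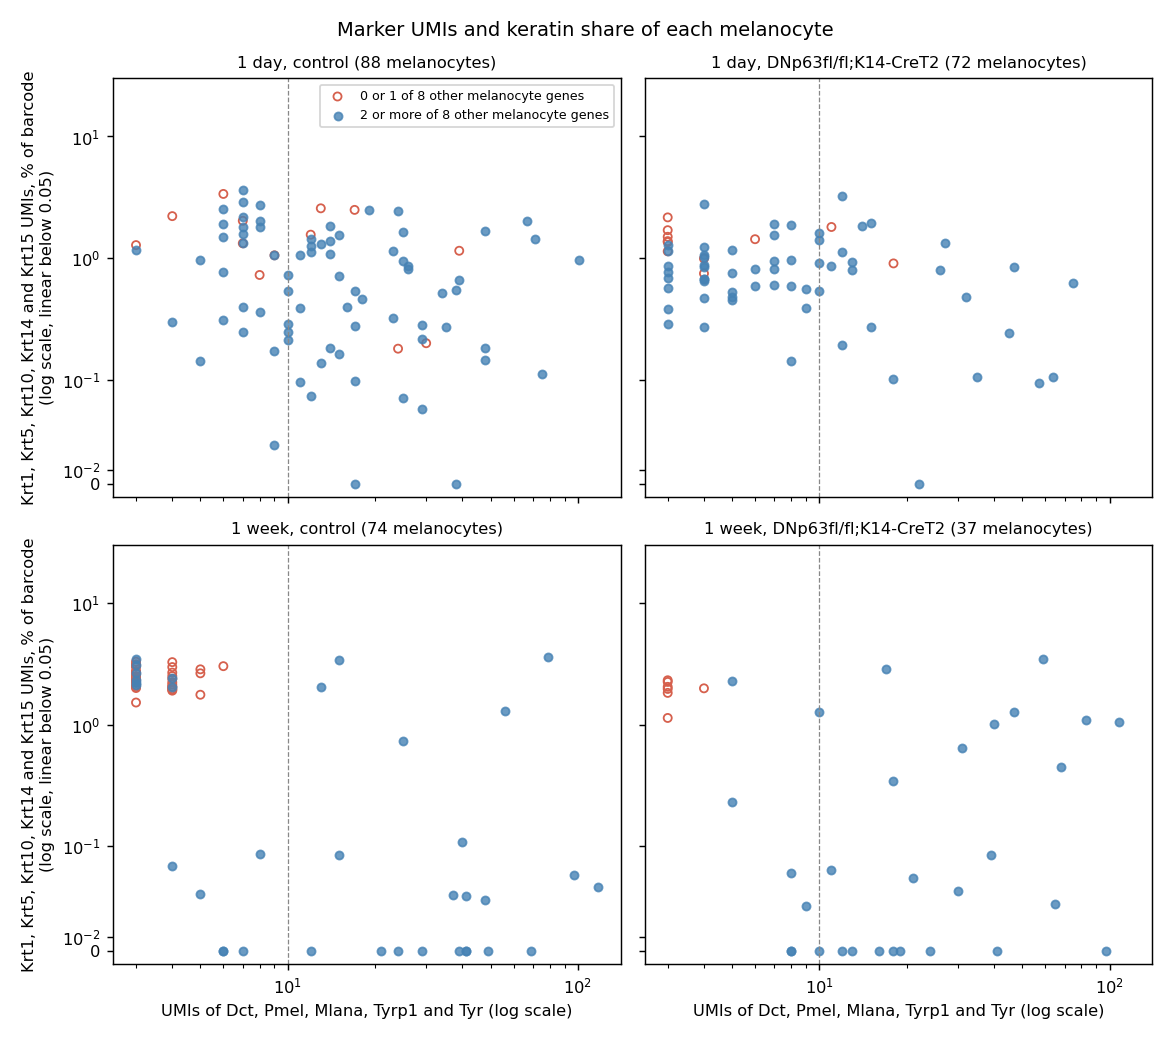
Each point is a melanocyte, placed by its UMIs of the 5 marker genes (horizontal, log scale) and by the percent of its UMIs from 5 keratin genes (vertical, log scale that is linear near 0), with a panel for each library, filled points for barcodes with at least 2 of the 8 independent melanocyte genes and a dashed line at 10 marker UMIs. To the right of the line 51 of 57, 24 of 26, 21 of 21 and 24 of 24 points are filled, and the 1-week control holds the most open points, near the lower limit of 3.

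Depth differed between the groups in a way that bears on how many melanocytes could be found. Melanocytes had a median of 3499.5 UMIs in the 1-day control, 3763.5 in the 1-day deleted, 1400 in the 1-week control and 2274 in the 1-week deleted library. Their markers had medians of 12.5, 7, 4 and 16 UMIs. The deepest cells weighed heavily in the summed profiles: the 5 deepest held 29.5%, 22.0%, 36.0% and 57.9% of all melanocyte UMIs. A marked barcode was left out for having under 1000 UMIs 62 times in the 1-day control and 18 times in the 1-week control, and 0 times in the deleted libraries, whose deposited barcodes all held more than 1000 UMIs.

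Melanocytes made up 0.299% of barcodes in the 1-day control (95% Clopper-Pearson interval 0.240 to 0.369%) and 0.226% in the 1-day deleted library (0.177 to 0.285%). The ratio of deleted to control was 0.755 (0.545 to 1.04), and its interval reached 1. With the same lowest UMI count in both 1-day libraries there were 65 and 72 melanocytes, and the ratio was 0.978 (0.690 to 1.39). At 1 week the share was 0.483% in the control (interval up to 0.606%) and 0.202% in the deleted library (0.142 to 0.278%), a ratio of 0.418 (0.274 to 0.628). A lower share can come from fewer melanocytes or from more barcodes of other cells, which cannot be told apart here. The share also depends on weakly marked barcodes. Those of 3 or 4 marker UMIs were 44 of 74 in the 1-week control and 7 of 37 in the 1-week deleted library. Barcodes without a melanocyte label also contain those whose markers fell under the limit.

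The 1-week ratio stayed below 1 under the stricter marker rules, where its interval reached 1, and lay above 1 with a depth minimum of 2000 UMIs. With 10 or more marker UMIs over 3 genes there were 21 melanocytes in the control and 24 in the deleted library, a ratio of 0.955 (0.510 to 1.80). With 5 or more UMIs over 3 genes there were 26 and 27, a ratio of 0.868 (0.488 to 1.55). With a depth minimum of 2000 UMIs there were 17 and 23, and the ratio was 2.18 (1.12 to 4.35), higher in the deleted library. Requiring 2 of the 8 independent genes left 35 and 30, a ratio of 0.717 (0.425 to 1.20). The low ratio was kept with each barcode thinned to 1000 UMIs, at 0.367 (0.220 to 0.596), and with the same lowest UMI count in both libraries, at 0.415 (0.271 to 0.625). At 1 day the stricter marker rules lowered the ratio. With 10 UMIs over 3 genes there were 47 and 26 melanocytes and a ratio of 0.510 (0.303 to 0.841). With 5 UMIs over 3 genes it was 0.502 (0.327 to 0.760). Thinned to 1000 UMIs it was 0.444 (0.267 to 0.722), and with 10% mitochondrial UMIs 0.716 (0.512 to 0.998). These intervals lay below 1, while with 2 independent genes the ratio was 0.750 (0.526 to 1.07). A minimum of 2000 UMIs gave 51 and 60 melanocytes and raised the ratio to 1.15 (0.781 to 1.71), and it raised the ratio at 1 week too. The share of melanocytes thus depended on the rule at both times, and the 1-week control lost most of its members under the stricter marker rules.

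**Figure D2:**
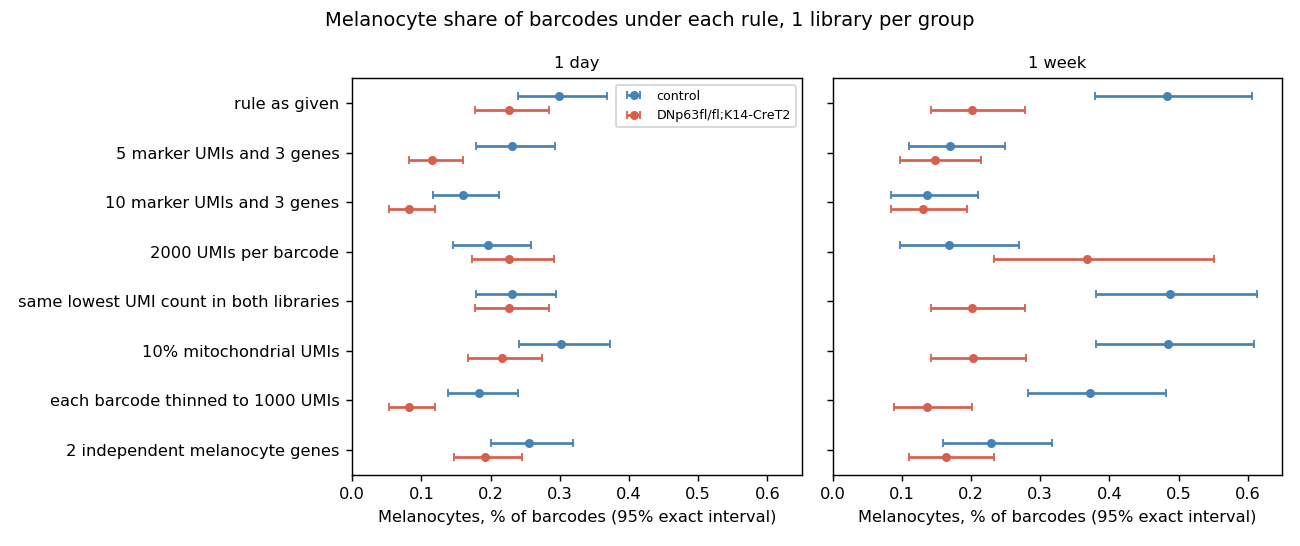
Melanocytes as a percent of passing barcodes (horizontal, with 95% Clopper-Pearson intervals) under 8 selection rules (vertical) in control and DNp63fl/fl;K14-CreT2 libraries, with a panel for each time. At 1 week the 2 groups lie apart under the stated rule (0.483% and 0.202%) and come together with 10 or more marker UMIs over 3 genes.

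Levels of the 5 marker genes are the values that chose the cells and were compared with no test. Dct stood at 1496 CPM in the 1-day control, 1232 in the 1-day deleted, 2688 in the 1-week control and 1486 in the 1-week deleted library. Pmel stood at 598, 491, 1649 and 988 CPM, and Tyrp1 at 514, 546, 1185 and 953 CPM. Mlana was the furthest apart at 1 day, with 171 CPM in the control and 78.1 in the deleted library, and had 546 and 202 CPM at 1 week. Tyr had 41.1 and 39.0 CPM at 1 day, and 366 and 174 at 1 week. All 5 were lower in the deleted library at 1 week, by log2 ratios of −0.86 for Dct, −0.74 for Pmel, −1.44 for Mlana, −0.31 for Tyrp1 and −1.07 for Tyr. Within the melanocytes of 10 or more marker UMIs over 3 genes the 1-week ratios were −1.35 for Dct, −1.12 for Pmel, −0.80 for Tyrp1 and −1.47 for Tyr. Keratin-poor melanocytes were those at or below the median keratin content of their own library. At 1 week these were 37 and 19 cells, with the cut at 2.12% in the control and 0.231% in the deleted library. The 2 sets are thus unlike in keratin content. Among them 4 of the 5 ratios lay above 0: Dct at 0.09, Pmel at 0.13, Tyr at 0.18 and Tyrp1 at 1.09, with Mlana at −0.83. At 1 day the cuts were 0.832% and 0.826%, but the 2 sets were unlike in depth. Cells of the control set held 1001 to 10229 UMIs and those of the deleted set 1408 to 15748. Outside the melanocytes these genes stayed at or below 2.77 CPM in each library.

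Few transcription factors of the lineage could be compared, and under the stated rule these differed less than 2-fold. A gene was compared when its melanocyte sums held 50 or more UMIs over both libraries of a time, and 2-fold or more was counted as higher or lower. Of 17 listed factors 5 were compared at 1 day and 5 at 1 week, and 0 were higher or lower at either time. Their median log2 ratio was −0.08 at 1 day and 0.07 at 1 week, beside 0.02 and 0.03 over all genes compared. The counts changed with the cells and the scale. At 1 day 2 of 5 were lower as a mean of CPM per cell, 2 of 4 after free RNA was subtracted, 1 of 4 without the deepest 10% of cells and 2 of 2 in keratin-poor melanocytes (median −1.93). Over all genes 3.95%, 17.7%, 1.79% and 5.50% were lower in these settings, in the same order. At 1 week 1 of 5 was higher as a mean per cell and 2 of 3 in keratin-poor melanocytes (median 1.28). The higher shares over all genes were 10.0% and 10.8% there. In the other direction, 1 of 4 was lower with 10 marker UMIs over 3 genes (median −0.65). With 2000 UMIs per barcode 1 of 4 was lower as well (median −0.39). The lower shares over all genes under these 2 rules were 5.70% and 5.66%. Pax3 stood at 132 CPM in control melanocytes at 1 day and 123 in the deleted library (log2 −0.11, interval −0.67 to 0.45). At 1 week Pax3 had 296 and 324 CPM (0.13, interval −0.39 to 0.66). Mitf, the central pigment regulator, had 68.6 and 72.5 CPM at 1 day, and 331 and 241 at 1 week (−0.46, interval −1.0 to 0.09). Sox10 rested on 8 and 12 UMIs at 1 day (13.7 and 33.5 CPM, interval of the log2 ratio −0.12 to 2.78), and it had 110 and 111 CPM at 1 week.

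Zeb2, a factor that maintains melanocyte differentiation, stood lower in the deleted library at 1 day, at 58.5 CPM against 108. The log2 ratio was −0.88 with an interval of −1.67 to −0.15. At 1 week Zeb2 had 203 and 138 CPM with an interval that included 0 (−1.27 to 0.16). Zeb2 was on the list of factors. It was also named for its 1-day level over the other barcodes, with enough UMIs for that only in the control (63 and 21 UMIs). The 1-day difference thus helped in that second choice. Tfap2a, which acts with MITF at pigment genes, had a log2 ratio of 0.34 at 1 day and 0.85 at 1 week. At 1 week 41.5% of its UMIs in the deleted library came from 1 melanocyte.

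Most of the receptors compared lay within 2-fold. Of 19 listed receptors 12 were compared at 1 day, with 1 higher, 0 lower and a median log2 ratio of 0.27. At 1 week 7 were compared, with 1 higher, 0 lower and a median of −0.19. Over all genes compared, 4.86% were higher at 1 day and 8.17% at 1 week, and the receptors' counts are given beside these shares as a description. In keratin-poor melanocytes at 1 week 2 receptors were compared and both were higher (median 1.42), beside 10.8% of all genes there. Kit, the receptor that melanocyte precursors need for survival and migration, had 75.4 and 92.0 CPM at 1 day (log2 0.29, interval −0.41 to 0.97). At 1 week Kit had 308 CPM in the control and 459 in the deleted library (0.58, interval 0.09 to 1.07). With 10 or more marker UMIs over 3 genes the 1-week values of Kit were 460 and 476 CPM, a log2 ratio of 0.05. Ednrb, the endothelin receptor, had 87.4 and 94.8 CPM at 1 day (0.12), then 290 and 245 at 1 week (−0.24).

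The higher receptor was Igf1r at 1 day, the receptor of insulin-like growth factor, at 63.4 CPM in the control and 131 in the deleted library (log2 1.05, interval 0.39 to 1.71). The call of Igf1r ended under several settings: the ratio was 0.96 without mitochondrial and ribosomal genes, 0.13 as a mean of CPM per cell, 0.75 without the 5 deepest cells, 0.33 without the deepest 10% and 0.92 in keratin-poor melanocytes. At 1 week the higher receptor was Fgfr1, at 52.3 and 206 CPM (1.98, interval 0.94 to 3.18), with 40.4% of its UMIs in the deleted library from 1 melanocyte and a ratio of −1.31 in keratin-poor melanocytes. Mc1r, the receptor of melanocyte-stimulating hormone, was nearly undetected, at 0, 0, 0 and 2 UMIs in the 4 libraries.

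Genes that mark melanocytes without having chosen them were mostly within 2-fold as well. Ptgds was the most abundant of them. It had 794 CPM in the 1-day control (463 UMIs in 79 cells) and 468 CPM in the 1-day deleted library (168 UMIs in 52 cells), a log2 ratio of −0.76 with an interval of −1.02 to −0.50. At 1 week Ptgds had 1254 and 1423 CPM (0.18, interval −0.07 to 0.43), so its level was lower in the deleted library at 1 day and not set apart at 1 week. Under other rules the 1-day ratio of Ptgds ran from −0.15 with 2000 or more UMIs per cell to −2.31 in keratin-poor cells. The keratin-poor sets were unlike in depth. Gpnmb had 166 and 170 CPM at 1 day (0.03), then 685 and 731 at 1 week (0.09).

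Mcoln3, a lysosomal and melanosomal calcium channel, had 84.0 CPM in control melanocytes at 1 day and 36.2 in the deleted library (log2 −1.21, interval −2.22 to −0.31, 49 and 13 UMIs). At 1 week Mcoln3 had 250 and 202 CPM (−0.31). Basp1, a membrane protein, had 115 and 55.8 CPM at 1 day (−1.04, interval −1.84 to −0.30), then 116 and 158 at 1 week. Basp1 was named for its 1-day level over the other barcodes, and had enough UMIs for that only in the control (67 and 20 UMIs). The 1-day difference thus helped to choose Basp1, and its 1-day values are a description. Syt4, a synaptotagmin of secretory vesicles, was even at 1 day with 84.0 and 83.6 CPM. At 1 week Syt4 had 26 UMIs in 6 control melanocytes and 3 UMIs in 1 melanocyte of the deleted library.

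**Figure D3:**
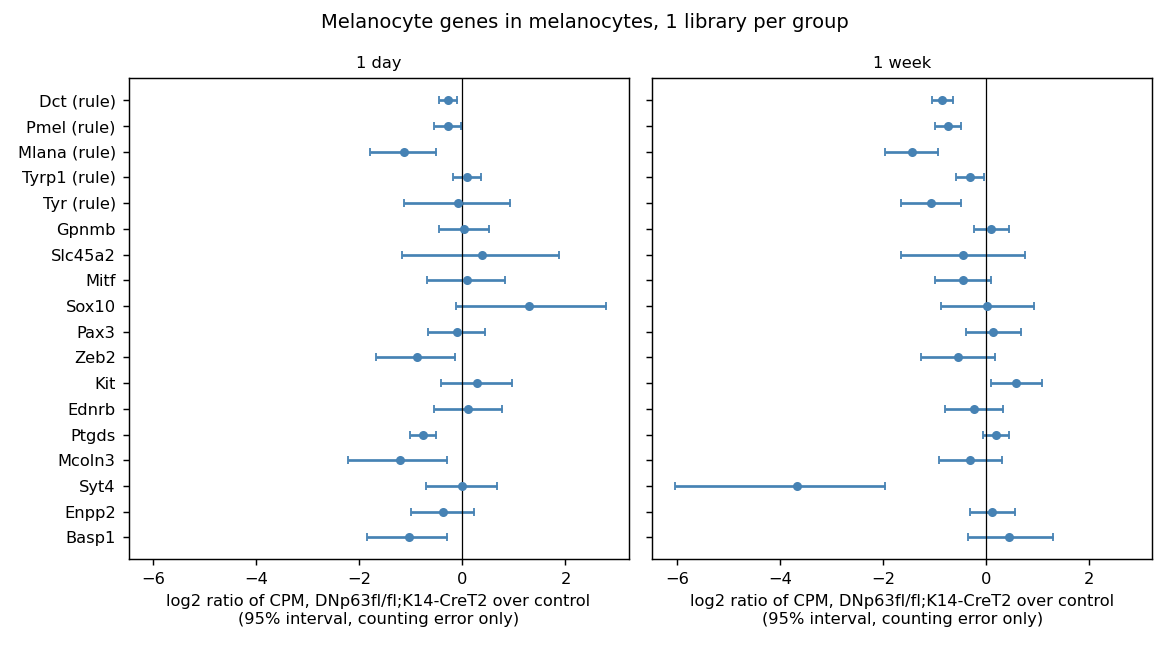
Log2 ratio of deleted to control CPM in summed melanocytes (horizontal, with 95% counting intervals) for 18 melanocyte genes (vertical) at 1 day and 1 week, with the genes that chose the cells at the top and marked as rule genes. At 1 week the 5 selection genes lie below 0, from −1.44 for Mlana to −0.31 for Tyrp1, while Pax3, Ptgds and Gpnmb lie near 0 and Kit lies above it at 0.58.

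The melanosome itself was measured thinly. Of 12 listed melanosome proteins and transporters beyond the selection genes only Gpnmb reached the limit for comparison at each time. Slc24a5, the ion exchanger of melanosomes, had 15, 10, 19 and 15 UMIs in the 4 libraries. Slc45a2, the transporter whose loss lightens coat and skin, had 10, 8, 13 and 14 UMIs. Trpm1 had 18, 9, 14 and 22 UMIs, and Oca2 and Tmem163 had 0 in all 4. At this depth no difference in these genes was detectable.

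Among 27 genes of melanosome biogenesis and transport 3 were compared at 1 day, with 0 higher, 1 lower and a median of −0.34. Over all genes compared 2.17% were lower. The lower gene was Rab38, a small GTPase that brings tyrosinase and TYRP1 to melanosomes, at 90.8 CPM in the control and 33.5 in the deleted library (log2 −1.44, interval −2.48 to −0.52). Rab38 was also lower outside the melanocytes, with a log2 ratio of −1.36. Myo5a, the motor that carries melanosomes to the cell edge, had ratios of −0.34 at 1 day and −0.16 at 1 week.

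Genes at least 4-fold above all other barcodes of a library, with 50 or more UMIs in its melanocytes, numbered 19 in the 1-day control (1.12% of 1690 genes) and 9 in the 1-day deleted library (0.841% of 1070). At 1 week they numbered 15 in the control (3.28% of 458) and 29 in the deleted library (3.92% of 740). These counts are a description, since the cells were selected on transcripts. Gpnmb, Ptgds and Vim (vimentin, an intermediate filament of non-epithelial cells) were enriched in both libraries at 1 day. At 1 week 11 genes were enriched in both: these 3 with Kit, Mitf, Pax3, Ednrb, Enpp2, Col12a1, Gstp1 and Selenop.

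The enrichment of the leading genes was far above the limit. Pax3 was 491 times as high in melanocytes as in other barcodes of the 1-day control and 297 times in its deleted counterpart. Ptgds was 984 and 598 times as high at 1 day and 506 and 299 times at 1 week. Kit was 153 and 162 times as high at 1 day and 279 and 217 times at 1 week. Enpp2, which encodes autotaxin, was 27.5 and 41.3 times as high at 1 day and 35.9 and 26.1 times at 1 week. These melanocyte genes were thus detected well above the surrounding RNA in all 4 libraries.

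Over all genes, 134 of 2760 compared in melanocytes at 1 day were higher in the deleted library (4.86%) and 60 were lower (2.17%). In all other barcodes 638 of 14582 genes were higher (4.38%) and 477 lower (3.27%). Of the 134 higher genes 114 had the same sign in the other barcodes, and 59 of them (44.0%) were also 2-fold higher there. Their median log2 ratio in the other barcodes was 0.88. Of the 60 lower genes 56 had the same sign in the other barcodes and 13 (21.7%) were 2-fold lower there, with a median of −0.50. Most genes called in melanocytes at 1 day therefore lay in the direction of the surrounding cells. The share with the same sign over all genes compared was not counted, so this is a description of the called genes. Subtracting free RNA took 88.9% and 77.2% of 1-day melanocyte UMIs by the profile of these other barcodes, so the 2 ratios are not independent.

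The 10 highest genes at 1 day included keratinocyte genes. Krt8, a keratin of simple epithelia, had 0 UMIs in control melanocytes and 159 in 26 melanocytes of the deleted library (443 CPM). With the 0 set to the floor of 3 counts its log2 ratio was 6.43, and the lower interval bound was 6.115. In the other barcodes Krt8 was higher by 9.52. Leukocytes of the deleted library carried Krt8 at a similar share, 38.5% beside 36.1% of melanocytes, and 21.3% beside 22.2% after thinning each barcode to 1000 UMIs. Klk7, a serine protease of cornified layers, had 127 CPM in control melanocytes and 1709 in the deleted library, where 57 of 72 carried it (log2 3.75, interval 3.40 to 4.12). In the other barcodes Klk7 was higher by 3.15, to 2949 CPM. Lor, which encodes the cornified envelope protein loricrin, had 18.9 and 454 CPM (4.59, interval 3.71 to 5.62). Slurp1, a secreted keratinocyte peptide, had 10.3 and 265 CPM (4.69) and was higher by 4.71 outside.

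Further barrier genes followed the same direction. Flg (filaggrin) had 1 UMI in the control and 53 in the deleted library, a log2 ratio of 6.43 with a wide interval of 3.89 to 11.8, and 62.3% of the 53 came from 1 melanocyte. Flg2 had 2 and 54 UMIs (5.46, interval 3.53 to 8.54). Slpi, a secreted protease inhibitor, had 1 and 58 UMIs (6.56, interval 4.03 to 11.9). Ly6c1 (4.11) and Nppb, a natriuretic peptide (3.18), were also higher in melanocytes, and outside them by 4.55 and 4.83. Each of the 10 highest genes but Sox4 was at least 2-fold higher in the other barcodes too.

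Sox4, a transcription factor of progenitors, was at 17.1 CPM in control melanocytes and 204 in the deleted library (log2 3.57), and at −0.05 in the other barcodes. A single melanocyte gave 80.8% of those UMIs, and without the 5 deepest cells of each library the ratio of Sox4 was 1.26 with an interval of −0.12 to 2.73. Sox4 and the next 4 genes were named for a level at least 4-fold above the other barcodes, which each reached only in the deleted library, where it was high. The difference thus helped to choose them, and their values are a description. Pik3r1 was 1.60-fold over the other barcodes in the control and 5.16-fold in the deleted library, Rhob 1.46 and 4.21-fold, Cebpd 1.81 and 4.68-fold and Htra1 1.36 and 6.38-fold. Pik3r1, the regulatory subunit of PI3 kinase, had 46.3 CPM in the control and 178 in the deleted library (1.95, interval 1.28 to 2.65), beside 0.26 in other barcodes. Without the 5 deepest cells Pik3r1 was still higher, by 1.46 with an interval of 0.70 to 2.26. Rhob, a small GTPase, had 44.6 and 192 CPM (2.11) and 0.75 without the 5 deepest. Cebpd, a stress-responsive transcription factor, had 146 and 390 CPM (1.42) and 0.58 without them. Htra1, a secreted protease, had 73.7 and 173 CPM (1.23), 0.27 without them and −0.04 without the deepest 10% of cells.

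The 10 lowest genes at 1 day included keratinocyte genes as well. Mt4, a metallothionein of stratified epithelia, had 255 CPM in control melanocytes and 19.5 in the deleted library (log2 −3.71, interval −5.05 to −2.63). Clca3a2 had 411 and 83.6 CPM (−2.30) and Ifi202b, an interferon-inducible gene, 1234 and 323 CPM (−1.93). The suprabasal keratins were lower as well: Krt1 had 2276 and 795 CPM (−1.52) and Krt10 7022 and 3295 CPM (−1.09). Hpgds (−3.97, 51 and 2 UMIs, interval −7.06 to −2.04), Alox12e (−2.79), Tent5a (−1.81), Fst (−1.62) and Fabp5 (−1.50) completed the 10 lowest. In the 44 control and 36 deleted-library melanocytes with the lowest keratin content Krt1 (1.46), Krt10 (1.32) and Clca3a2 (0.05) had the opposite sign, and so did Nppb (−1.54) among the higher genes. Krt1 and Krt10 are among the keratins that chose these cells, so their values there are a description. All 10 lowest genes had a negative ratio in the other barcodes, from −2.70 for Mt4 to −0.22 for Krt10.

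**Figure D4:**
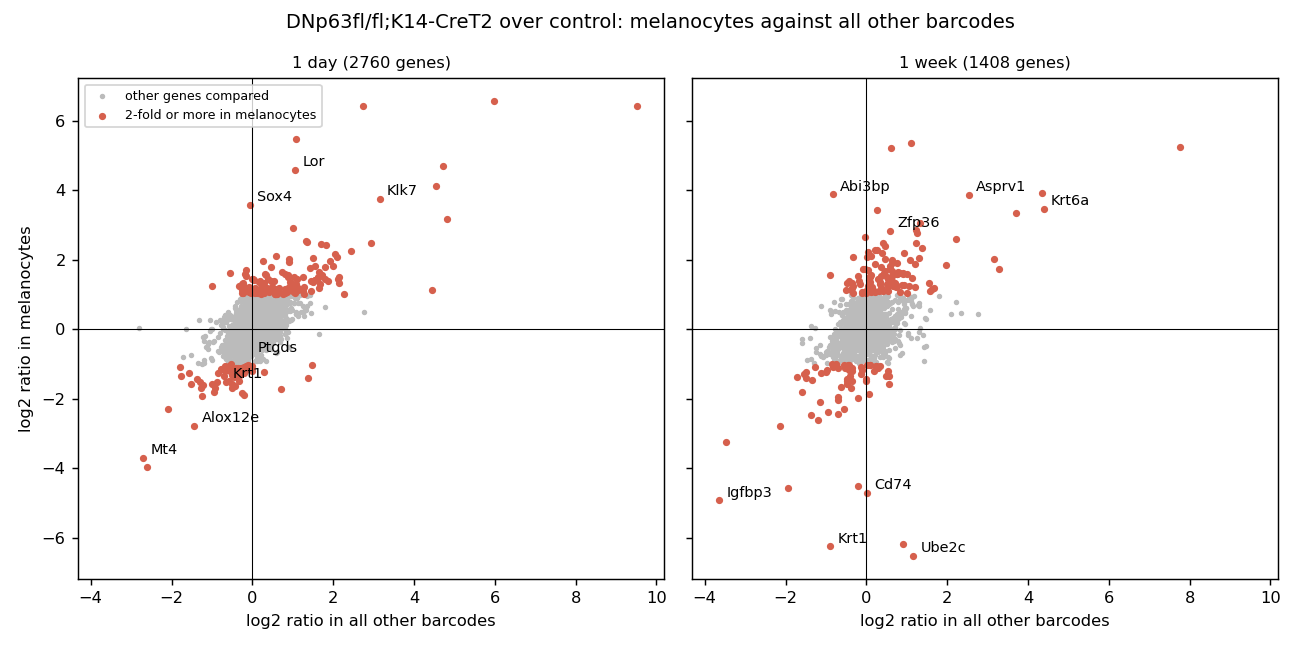
Log2 ratio of deleted to control for each gene compared in melanocytes (vertical) against the same ratio in all other barcodes (horizontal), with a panel for each time, coloured points for genes 2-fold or more apart in melanocytes and some of the named genes written beside their points. Klk7 at 1 day lies high on both axes (3.75 and 3.15), whereas Sox4 at 1 day and Cd74 at 1 week lie near 0 on the horizontal axis, at 3.57 and −4.71 on the vertical axis.

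At 1 week 115 of 1408 genes compared were higher in melanocytes of the deleted library (8.17%) and 66 were lower (4.69%). In all other barcodes 1387 of 14732 were higher (9.41%) and 615 lower (4.17%). Of the 115 higher genes 94 had the same sign outside the melanocytes and 27 (23.5%) were 2-fold higher there. Of the 66 lower genes 49 had the same sign and 15 (22.7%) were 2-fold lower. Here too the share with the same sign over all genes compared was not counted. Few cells decided many of these values, and without the 5 deepest melanocytes of each library 606 genes were compared, 32 of them higher (5.28%) and 40 lower (6.60%).

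The highest genes at 1 week again included keratinocyte genes. Klk6, a secreted protease, had 0 UMIs in the control and 168 in 9 melanocytes of the deleted library, with 78.0% from 1 melanocyte. Against the floor of 3 counts its log2 ratio was 5.25, with a lower interval bound of 4.94. Klk10 had 0 and 66 UMIs, a log2 ratio of 3.90 against the same floor, with a lower interval bound of 3.57. Krt6a, a keratin of wounded and follicular epithelium, had 92.9 and 1024 CPM (3.46), with 62.2% from 1 melanocyte and a ratio of −1.21 once the profile of the other barcodes was subtracted as free RNA. Asprv1, a protease of the stratum granulosum, had 46.5 and 680 CPM (3.87). These 4 genes were higher in the other barcodes too, by 7.77 for Klk6, 4.36 for Klk10, 4.39 for Krt6a and 2.54 for Asprv1.

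Other high genes differed in how far the surroundings shared them. Abi3bp, an extracellular matrix protein, had 34.8 CPM in the control and 514 in the deleted library (3.88), from 7 melanocytes with 52.3% in 1 of them, and −0.83 in the other barcodes. Fam13a had 1 and 54 UMIs (5.20, interval 2.66 to 10.5) and 0.61 outside. Cebpd had 128 and 1071 CPM (3.07, interval 2.44 to 3.77), 1.55 without the 5 deepest cells and 1.33 outside. Pik3r1 had 87.1 and 316 CPM (1.86, interval 1.05 to 2.76), 1.37 without the 5 deepest and 0.21 outside. Lgr5, a receptor of follicle stem cells, had 46.5 and 245 CPM (2.40), and Npnt, the basement membrane protein nephronectin, 46.5 and 202 CPM (2.12). Cald1 (5.35, 1 and 60 UMIs, interval 2.82 to 10.7) drew 80.0% of its UMIs in the deleted library from 1 melanocyte. Its ratio outside was 1.11, so Cald1, like Cebpd, was at least 2-fold higher in the other barcodes too. Abi3bp, Fam13a, Pik3r1, Lgr5 and Npnt, named for their level over the other barcodes, likewise reached 4-fold only in the deleted library, so the difference helped to choose them.

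The lowest genes at 1 week comprised keratins and genes of other cells. Of the 74 control barcodes 44 were weakly marked, with keratin content near that of the other barcodes, so the 2 sets were unlike. Krt1 had 1504 CPM in the control and 19.8 in the deleted library (log2 −6.25, interval −7.89 to −5.01), and Krt10 had 2659 and 478 CPM (−2.48). Igfbp3, a binding protein of insulin-like growth factors, had 482 and 15.8 CPM (−4.93), with −3.65 outside. Clca3a2 (−4.57), Ifi202b (−3.26) and Eppk1, an epithelial plakin (−2.78), were lower outside as well. Cd74, the invariant chain of antigen-presenting cells, had 71 UMIs in 30 control melanocytes and 4 UMIs in 2 melanocytes of the deleted library (−4.71), beside 0.02 in the other barcodes. In melanocytes with 10 or more marker UMIs over 3 genes Cd74 had 0 and 3 UMIs, so its control counts came from the weakly marked barcodes.

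Single cells again carried part of the lower set. Ube2c, a ubiquitin-conjugating enzyme of mitosis, had 63 UMIs in the control, 81.0% of them in 1 melanocyte, and 1 in the deleted library (interval of the log2 ratio −11.9 to −4.00). The gene 2310046K23Rik had 100 and 2 UMIs, with 73.0% of the control counts in 1 melanocyte (interval −9.26 to −4.31). S100a4, a calcium-binding protein, had 47 and 3 UMIs (interval −6.85 to −2.89). Among genes enriched in melanocytes in both libraries, Vim was lower, at 3141 and 1956 CPM (−0.68, interval −0.86 to −0.50), and so was Gstp1, a glutathione transferase, at 1841 and 1103 CPM (−0.74, interval −0.98 to −0.50). Outside the melanocytes Vim and Gstp1 had ratios of 0.41 and 0.21.

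Of the immediate early and stress genes compared, more were higher than lower in the deleted libraries, though not in each choice of cells. Of 23 listed genes 21 were compared at 1 day, with 6 higher, 0 lower and a median log2 ratio of 0.61, and the same genes had a median of 0.47 in the other barcodes. Over all genes compared in melanocytes 4.86% were higher and 2.17% lower. The 6 were Zfp36 (1.65), Egr1 (1.51), Fosb (1.40), Ier2 (1.37), Atf3 (1.21) and Fos (1.13). Egr1, a growth-factor-induced transcription factor, had 327 CPM in control melanocytes and 934 in the deleted library. Fos, the partner of JUN in AP-1, had 639 and 1399 CPM. Without the 5 deepest cells of each library 0 of the 21 were higher and the median was 0.14, and without the deepest 10% it was −0.06.

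At 1 week 21 immediate early and stress genes were compared, with 9 higher, 2 lower and a median of 0.62, beside 0.28 in the other barcodes. The shares over all genes were 8.17% higher and 4.69% lower. Zfp36, an mRNA-decay factor, had 360 and 2573 CPM (2.84, interval 2.46 to 3.24). Ier2 (2.28), Egr1 (2.03), Nr4a1 (1.52), Jun (1.45), Ier3 (1.30), Junb (1.29), Fos (1.21) and Atf3 (1.07) were also higher. The lower genes were the heat-shock gene Hspa1a (−1.35) and the AP-1 gene Fosl1 (−1.25). A single melanocyte gave 50.4% of the Zfp36 UMIs of the deleted library. Without the 5 deepest cells 6 genes were higher, 2 were lower and the median was 0.58, while in keratin-poor melanocytes 17 were compared, 2 were higher and 5 lower, and the median was −0.03. Over all genes 5.28% were higher and 6.60% lower without the 5 deepest cells, and 10.8% and 18.3% in keratin-poor melanocytes.

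Few cell cycle genes could be compared. Of 26 listed genes 4 were compared at 1 day, with 0 higher and 0 lower (median 0.26), and 3 at 1 week, with 0 higher and 3 lower (median −1.87), where 4.69% of all genes were lower. The 3 were Ube2c, the chromatin protein Hmgb2 (418 and 115 CPM, −1.87) and the tubulin regulator Stmn1 (192 and 90.9 CPM, −1.08). Mki67, the proliferation marker, had 37 UMIs in 15 control melanocytes and 4 UMIs in 3 melanocytes of the 1-week deleted library. Of cells with 10 or more marker UMIs over 3 genes 2 of 21 and 1 of 24 carried Mki67, so most of the 15 control cells were more weakly marked. In the other barcodes the same 3 genes had a median of 0.24. After thinning each cell to 1000 UMIs, 17.6% of 1-week control melanocytes held 3 or more UMIs of 14 genes of G2 and mitosis, against 2.70% in the deleted library. Unthinned the shares were 27.0% and 21.6%, and in cells of at least 2000 UMIs thinned to that number they were 5.88% and 4.35%. Among cells with 10 or more marker UMIs over 3 genes the values were 4.76% and 0% thinned to 1000 UMIs, and 9.52% and 25.0% unthinned, so the direction depended on the thinning and on the cells used. Leukocytes of the 1-week libraries had 3.99% and 5.07% at 1000 UMIs. Whether the times differ was not tested.

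Of 27 antigen presentation and interferon genes 10 were compared at 1 day, with 0 higher, 0 lower and a median of −0.37. The count of lower genes depended on the cells used: it was 4 of 10 with 5 marker UMIs over 3 genes, 4 of 8 in keratin-poor melanocytes (median −2.00) and 2 of 3 after free RNA was subtracted. Over all genes the lower shares in these settings were 3.1%, 5.50% and 17.7%. At 1 week 5 were compared, with 0 higher, 2 lower and a median of −0.53, beside 4.69% lower over all genes. In keratin-poor melanocytes at 1 week 0 of 3 were lower and the median was 0.05. B2m, the light chain of class I molecules, had 1893 and 917 CPM at 1 week (−1.05, interval −1.30 to −0.80), and Cd74 was the other. The class I heavy chain H2-K1 had 1394 and 1039 CPM (−0.42).

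Survival and p53 target genes compared at 1 day lay within 2-fold under the stated rule (8 of 21 compared, 0 higher, 0 lower, median 0.16). With 5 and with 10 marker UMIs over 3 genes 1 was higher, beside 4.32% and 4.12% of all genes. A single gene was lower with 2000 UMIs per barcode, with 10% mitochondrial UMIs and after free RNA was subtracted. So it was without mitochondrial and ribosomal genes, with the median of all genes set to 0 and as a mean per cell. Over all genes the lower share was 17.7% after free RNA was subtracted and 2.43% to 3.95% in the others of these settings. At 1 week 4 were compared, with 1 higher and 0 lower and a median of 0.45, beside 8.17% of all genes higher. The higher gene was Phlda3, a p53 target that restrains AKT, at 75.5 and 178 CPM (1.24, interval 0.32 to 2.25). Bcl2, a survival factor that melanocyte stem cells depend on, had 87.4 and 80.9 CPM at 1 day (−0.11), then 145 and 206 at 1 week (0.50, interval −0.21 to 1.25). Cdkn1a, the p53-induced cell cycle inhibitor, had 677 and 795 CPM at 1 day, and 819 and 636 at 1 week.

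Lysosomal genes, relatives of the melanosome machinery, had medians of 0.25 at 1 day (13 of 25 compared, 0 higher, 0 lower) and 0.37 at 1 week (9 compared, 2 higher, 0 lower, beside 8.17% of all genes higher). The 2 were the proteases Ctsd, at 134 and 482 CPM (1.85), and Ctsb, at 221 and 466 CPM (1.08). The 1-day lysosomal counts changed with the cells and the scale. Higher were 1 of 10 and 1 of 8 with 5 and 10 marker UMIs over 3 genes, and 2 of 6 after free RNA was subtracted. The higher shares over all genes there were 4.32%, 4.12% and 16.8%. Lower were 2 of 6 in keratin-poor melanocytes and 2 of 13 as a mean per cell (median −0.15). The lower shares over all genes there were 5.50% and 3.95%. Adhesion genes had medians of 0.12 at 1 day (14 compared, 1 higher, 0 lower) and −0.31 at 1 week (11 compared, 1 higher, 1 lower). Over all genes the higher share was 4.86% and 8.17% at these times, and the lower share was 4.69% in the later pair. The 1-week median had the opposite sign with 5 and 10 marker UMIs over 3 genes (0.12 and 0.13), with 2000 UMIs per barcode (0.20), in keratin-poor melanocytes (0.51) and after free RNA was subtracted (0.85). At 1 day it did so in keratin-poor melanocytes (−0.23), as a mean over cells (−0.17) and without the deepest cells (−0.03 and −0.04). Itgav, an integrin, was higher at 1 day (58.3 and 148 CPM, 1.34). At 1 week Alcam, a cell adhesion molecule, was higher (163 and 391 CPM, 1.27) and Col17a1, a hemidesmosomal collagen, was lower (685 and 265 CPM, −1.37). Of 22 oxidative stress genes 16 were compared at 1 day (median 0.04), and Sod1 (1.52) and Cat (1.15), both antioxidant enzymes, were higher, beside 4.86% of all genes. Of the 13 compared without the 5 deepest cells, without the deepest 10%, or in cells with 2 independent melanocyte genes, 0 were higher. At 1 week 12 were compared with 0 higher and 0 lower. A single gene was lower there with 5 or 10 marker UMIs over 3 genes, with 2000 UMIs per barcode and in keratin-poor melanocytes. So it was as a mean per cell and with 2 independent genes. Over all genes the lower share was 18.3% in keratin-poor melanocytes and 5.21% to 7.53% in the others of these settings. Of 7 compared after free RNA was subtracted 1 was higher and 2 were lower, and 1 of 16 was higher at a minimum of 20 UMIs per gene. Over all genes 20.4% were higher and 14.8% lower after the subtraction, and 11.6% were higher at that minimum.

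Detection per cell gave a second view that does not weight deep cells. After thinning to 1000 UMIs, Ptgds was found in 62.5% of 1-day control and 37.5% of 1-day deleted melanocytes, and in 39.2% and 59.5% at 1 week. Unthinned values were 89.8%, 72.2%, 48.6% and 70.3%. Kit was found in 18.2%, 9.72%, 18.9% and 40.5% of thinned melanocytes and in 34.1%, 34.7%, 28.4% and 64.9% unthinned. Pax3 was found in 26.1%, 15.3%, 21.6% and 43.2% of thinned melanocytes. Leukocytes served as background with median depths of 2611, 3229, 3528 and 2166 UMIs: Ptgds reached at most 0.267% of them and Pax3 0% in all 4 libraries. Kit reached at most 2.40%, and since its level in 1-week deleted leukocytes (18.4 CPM) was above that in all other barcodes (2.11 CPM), leukocytes are no Kit-free background. Thinned to 2000 UMIs, which leaves out shallower cells, Ptgds was found in 54.9%, 51.7%, 70.6% and 65.2% of melanocytes and Kit in 7.84%, 16.7%, 47.1% and 47.8%. These are 51, 60, 17 and 23 cells. Among them Kit at 1 day and Ptgds at 1 week had the opposite order to that at 1000 UMIs, and the other differences were smaller.

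With 10 or more marker UMIs over 3 genes the detection of Ptgds was 66.0%, 53.8%, 71.4% and 75.0%. The lower 1-week control value over all melanocytes therefore lay with the weakly marked barcodes. Krt14 was found in 73.9%, 77.8%, 67.6% and 54.1% of thinned melanocytes and in 63.2%, 63.6%, 49.3% and 54.1% of leukocytes. Leukocytes do not express Krt14, and the source of its transcripts in them or in melanocytes was not tested. Among cells with 10 or more marker UMIs over 3 genes, Krt14 was found in 14.3% of the 1-week control and 45.8% of the 1-week deleted library.

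Keratinocyte markers summed to 41686 CPM in 1-day control melanocytes and 29857 in the 1-day deleted library, and to 36860 and 28765 CPM at 1 week. Of 16 listed markers 15 were compared at 1 day, with 2 higher (Krt8 and Krt79), 2 lower (Krt1 and Krt10) and a median of −0.16. At 1 week 14 were compared, with 1 higher (Krt6a), 3 lower (Krt1, Krt10 and Krtdap) and a median of −0.52. Over all genes compared in melanocytes 4.86% were higher and 2.17% lower at 1 day, and 8.17% and 4.69% at 1 week. The 5 keratins used above made up 1.69%, 1.04%, 1.71% and 1.09% of melanocyte UMIs and 1.90%, 1.34%, 2.55% and 1.81% of all other UMIs. The part of this RNA in the epidermal genes named above was not tested.

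Markers of other cells had few UMIs in the melanocyte sums, but per UMI some lay near the level outside the melanocytes. T cell markers had 127, 36.2, 174 and 23.7 CPM in the 4 libraries, against 173, 65.6, 274 and 161 outside the melanocytes. Langerhans cell and macrophage markers had 99.4, 170, 81.3 and 35.6 CPM against 195, 243, 204 and 235. Fibroblast markers had 15.4, 55.8, 92.9 and 19.8 CPM against 37.5, 39.9, 510 and 249. Sebaceous gland markers had 236.5, 262, 261 and 387 CPM against 360, 417, 427.5 and 990. T cell markers had 74, 13, 30 and 6 UMIs in the 4 libraries, and markers of Langerhans cells and macrophages had 58, 61, 14 and 9. Fibroblast markers had 9, 20, 16 and 5 UMIs, endothelial markers 0, 0, 1 and 1, smooth muscle markers 13, 7, 3 and 6, Merkel cell markers 0, 0, 0 and 1 and mast cell markers 0, 1, 2 and 1. Sebaceous gland markers had 138, 94, 45 and 98 UMIs. Markers of Schwann cells and undifferentiated crest cells, a list that contains Sox10, had 157, 107, 73 and 90 UMIs.

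The cells around melanocytes supply the ligands of KIT, EDNRB and other receptors, and these were measured in all other barcodes. Of 36 listed ligands 35 were in the files. At 1 day 30 were compared, with 5 higher and 2 lower in the deleted library, and at 1 week 32, with 3 higher and 5 lower. Over all genes compared in these barcodes 4.38% were higher and 3.27% lower at 1 day, and 9.41% and 4.17% at 1 week, so the 3 higher ligands at 1 week are near the share over all genes. Kitl, the ligand of KIT, had 37.8 CPM in control barcodes at 1 day and 108 in the deleted library (log2 1.51). At 1 week Kitl had 28.9 and 30.7 CPM (0.09), so the higher level was seen at 1 day only, and the difference between the times was not tested. Edn1, which encodes endothelin-1, had 36.2 and 48.6 CPM at 1 day (0.42) and a ratio of −0.07 at 1 week. Edn2 had 1.06 and 0.27.

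Among the higher ligands were Il1a and Tnf at 1 day and Il1a and Csf2 at 1 week. Il1a, which encodes interleukin-1 alpha, had 2.55 and 16.6 CPM at 1 day (2.70), then 2.12 and 11.0 at 1 week (2.37). Tnf had 4.87 and 13.8 CPM at 1 day (1.51) and a ratio of 0.58 at 1 week. Csf2 had ratios of 0.72 and 1.69. Il1a was thus the ligand of these 3 at least 2-fold higher at both times.

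The lower ligands were Wnt10b and Wnt5a at both times, with Bmp4, Bmp2 and Dll1 at 1 week. Wnt10b had ratios of −1.43 at 1 day and −1.97 at 1 week, and Wnt5a −1.15 and −1.80. At 1 week Bmp4 (−2.11), Bmp2 (−1.59) and the Notch ligand Dll1 (−1.38) were lower too, after 0.13, −0.44 and −0.06 at 1 day. Wnt7a was higher at 1 week (1.76). Nrg1, the neuregulin bound by ERBB3, had ratios of −0.57 and 0.79, and Bmp7 had −0.46 and 0.87, all under 2-fold. Edn3, the endothelin that expands melanocyte precursors, had 1, 2, 25 and 11 UMIs outside the melanocytes. Pomc, the precursor of melanocyte-stimulating hormone, had 12, 12, 15 and 17, and Hgf, the ligand of MET, had 5, 2, 33 and 33.

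**Figure D5:**
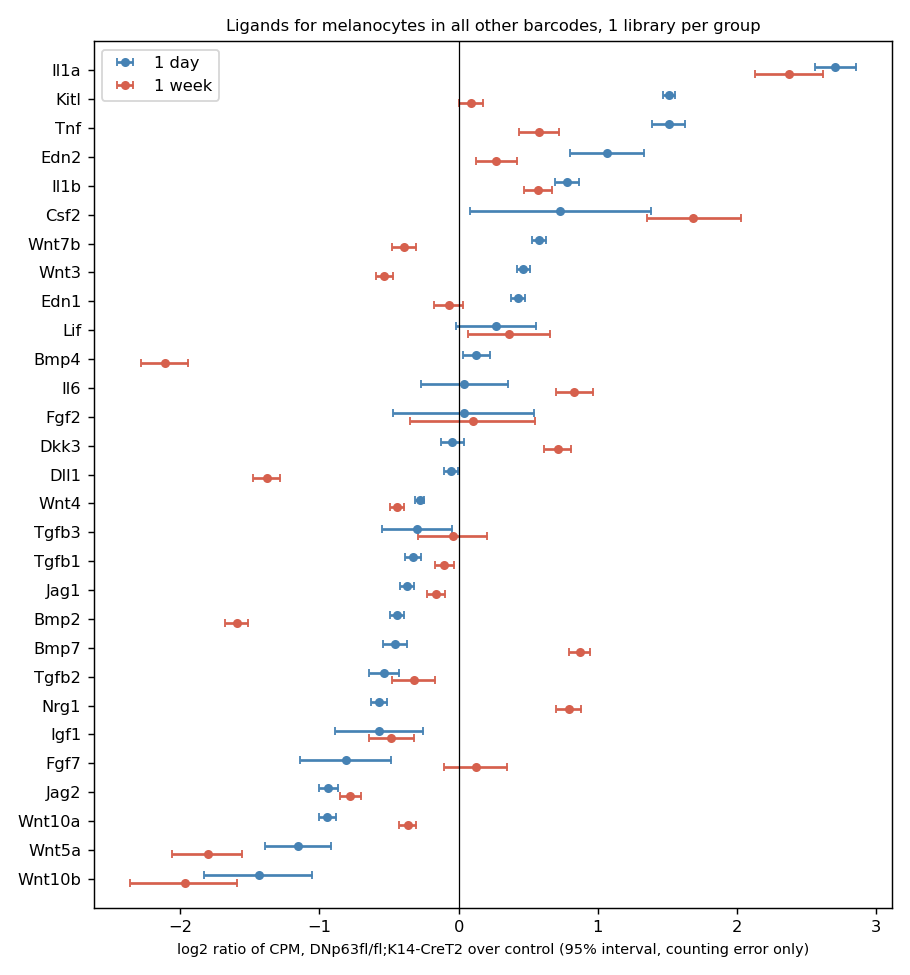
Log2 ratio of deleted to control CPM in all barcodes other than melanocytes (horizontal, 95% counting intervals) for 29 ligands of melanocyte receptors (vertical) at 1 day and 1 week. Kitl lies at 1.51 at 1 day and at 0.09 at 1 week, Il1a lies above 2 at both times, and Wnt10b and Wnt5a lie below −1 at both.

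Within melanocytes the summed level of Kitl also stood higher at 1 day, at 30.9 CPM in the control and 128 in the deleted library (2.06). Leukocytes carried Kitl more often too, at 1.49% of control and 5.79% of deleted-library leukocytes beside 3.41% and 8.33% of melanocytes after thinning to 1000 UMIs. Thinned to 2000 UMIs, Kitl was found in 11.8% and 13.3% of melanocytes and in 4.64% and 12.7% of leukocytes. Of the ligands 5 were compared in melanocytes at 1 day, with 2 higher and 0 lower, and 3 at 1 week, with 2 higher and 0 lower, beside 4.86% and 8.17% of all genes higher. At 1 day 0 of 2 and 0 of 1 were higher with 5 and 10 marker UMIs over 3 genes. With 2000 UMIs per barcode 1 of 4 was higher, and 1 of 3 with 2 independent genes or without the 5 deepest cells. Over all genes 5.07%, 3.85% and 3.30% were higher in these settings. The higher genes at 1 week were Jag1, a Notch ligand (1.29, and −0.66 as a mean over cells), and Edn2, with 80.9% of its UMIs in the deleted library from 1 melanocyte.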

How the data were processed

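UMI counts per gene and barcode were deposited by the authors as 1 matrix per library, per the file headers. Cell Ranger 5.0.1, Seurat and the mm10 genome are named in the submitters' processing notes. Passing barcodes were summed into melanocytes and all other barcodes, and CPM was computed from each sum. Ratios of CPM carry exact binomial intervals and shares carry Clopper-Pearson intervals, both at 95%. No significance test or doublet caller was applied, and free RNA was subtracted only as an alternative. The ratio and its interval were tested on simulated counts drawn independently, with counting error only. That simulation held no clumping of UMIs in single cells, so it does not check the intervals of genes with such clumping. A floor of 3 counts replaced 0. The 4 antibody features (hashtags) of the 1-day matrices entered no comparison. Named genes were those of the melanocyte lists, the 10 highest and 10 lowest at each time by the interval bound nearest 0, up to 5 each way among genes enriched 4-fold, and leading genes of other lists. Members and lists were chosen with earlier results of these data known. Alternatives covered marker, depth and mitochondrial limits, thinning, scaling and gene minimums of 20 and 100 UMIs; requiring 2 of 8 independent genes and leaving out the 5 deepest cells were chosen after seeing the data. Python 3.11.15, numpy 2.4.6, scipy 1.17.1, pandas 2.3.3 and matplotlib 3.10.9 were used. Promoters are from RefSeq (GRCm38.p6) and gene positions from GENCODE M21. A few genes are not reported here.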

Additional observations from a re-analysis of the deposited data

Results flagged for a closer look

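Alox12e, a lipoxygenase gene of epidermis, had opposite directions at the 2 times in melanocytes: the log2 ratio of deleted to control was −2.79 at 1 day and 1.07 at 1 week. Alox12e rested on 101 and 9 UMIs at 1 day and on 39 and 120 UMIs at 1 week, and it was −1.44 and −0.11 in the other barcodes.

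S100a4 was also opposite at the 2 times, at 1.22 at 1 day (72 and 103 UMIs) and −4.53 at 1 week (47 and 3 UMIs). The differences between times were not tested, and the kits differed between the times.

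The hashtag antibodies of the 1-day matrices gave a signal outside the gene counts. Hashtag 2 led in 53.4% of control melanocytes and in 66.7% of melanocytes of the deleted library, against 36.3% and 68.6% of all other barcodes. What each hashtag marks is not given in the sources used here.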

How the results depend on the processing

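No paired analysis was possible because each group is 1 library and nothing pairs libraries. Of 1331 values of named genes under 12 alternatives, 983 moved by less than their counting interval, 339 moved further, and 9 that were 2-fold or more apart changed sign. The cause of each change was not tested. The share ratio at 1 day (0.755) was 0.502 with 5 marker UMIs over 3 genes, 0.510 with 10, 0.444 with each barcode thinned and 1.15 with 2000 UMIs per barcode. At 1 week (0.418) it was 0.868 and 0.955 under the stricter marker rules, 0.717 with 2 independent genes and 2.18 with 2000 UMIs, on the other side of 1, while it was 0.367 with each barcode thinned, 0.415 with the same lowest UMI count in both libraries and 0.417 with 10% mitochondrial UMIs.

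Counts of genes moved with depth and with the cells used, and so did the number compared (2760 at 1 day and 1408 at 1 week). Higher genes at 1 day (134) were 62 with 10 marker UMIs, 76 of 452 (16.8%) after free RNA was subtracted, 79 of 709 (11.1%) in keratin-poor cells, 71 without the deepest 10% of cells, 68 without the 5 deepest, 87 with 2 independent genes, 224 as a mean of CPM per cell, and 355 and 54 at minimums of 20 and 100 UMIs per gene. Lower genes at 1 day (60) were 39 in keratin-poor cells, 31 and 34 without the deepest 10% and the 5 deepest cells, 109 as a mean, and 200 and 20 at the 2 minimums. The subtraction took 88.9% and 77.2% of 1-day melanocyte UMIs as free RNA. At 1 week higher genes (115) were 40 of 371 (10.8%) in keratin-poor cells, 35 of 612 and 32 of 606 without the deepest cells, and 453 and 41 at the 2 minimums. Lower genes at 1 week (66) were 68 of 371 (18.3%) in keratin-poor cells, 35 and 40 without the deepest cells, 106 as a mean, and 214 and 43 at the 2 minimums. The higher share of all genes called at 1 day (69.1%) was 48.7% after free RNA was subtracted and 58.5% (110 higher, 78 lower) without mitochondrial and ribosomal genes. At 1 week that share (63.5%) was 37.0% in keratin-poor cells, 50% without the deepest 10% and 44.4% without the 5 deepest.

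Enriched genes in the 1-day control (19) were 9 and 5 under the stricter marker rules, 3 with 2000 UMIs, 31 after free RNA was subtracted, 9 in keratin-poor cells, 32 as a mean, and 45 and 3 at the 2 minimums. In the 1-day deleted library (9) they were 2 and 3 under the marker rules, 39 after free RNA was subtracted, 4 in keratin-poor cells and without the deepest cells, 5 with 2 independent genes, and 51 and 3 at the minimums. In the 1-week control (15) they were 9 with 2000 UMIs, 8 without the deepest 10%, and 46 and 6 at the minimums. In the 1-week deleted library (29) they were 55 after free RNA was subtracted, 14 in keratin-poor cells, 17 and 16 without the deepest cells, and 117 and 9 at the minimums. Ligands lower at 1 day (2) were 4 without mitochondrial and ribosomal genes.

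With free RNA subtracted the 1-day medians were −0.88 for transcription factors, −0.69 for receptors, −0.96 for survival genes, −1.03 for antigen presentation, 0.68 for adhesion and −4.35 for keratinocyte markers. The 1-week medians were −1.19 for the selection genes, −0.82 for transcription factors, 1.84 for AP-1 and stress genes, −1.09 for antigen presentation, 0.85 for adhesion and −0.31 for keratinocyte markers. In keratin-poor cells the 1-day medians were −1.93 for transcription factors, 0.19 for AP-1 and stress genes, −2.00 for antigen presentation, −0.35 for oxidative stress genes and 1.16 for keratinocyte markers. The 1-week medians there were 0.13 for the selection genes, 1.28 for transcription factors, 1.42 for receptors, −0.027 for AP-1 and stress genes, 0.049 for antigen presentation, 0.51 for adhesion, 1.10 for lysosome and −5.28 for keratinocyte markers. The 1-week cut was 2.12% keratin in the control and 0.231% in the deleted library, so these medians compare unlike cells. At 1 day the keratin-poor sets were unlike in depth, with lowest values of 1001 UMIs in the control and 1408 in the deleted library. The keratinocyte markers include keratins that chose the keratin-poor cells.

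As a mean of CPM per cell the 1-day medians were −0.89 for transcription factors, 0.10 for AP-1 and stress genes and 0.25 for keratinocyte markers, and the 1-week medians −0.43 for the selection genes and −0.96 for keratinocyte markers. Without the deepest 10% and the 5 deepest cells the 1-day medians were −0.064 and 0.14 for AP-1 and stress genes and −0.31 and −0.32 for oxidative stress genes. Keratinocyte markers were −0.058 at 1 day without the 5 deepest and −0.34 at 1 week without the deepest 10%, and receptors 0.48 at 1 week without the 5 deepest. With 5 marker UMIs keratinocyte markers were −0.39 at 1 day. With 5 and 10 marker UMIs the 1-week medians were −1.27 and −1.35 for the selection genes and 0.96 and 0.98 for AP-1 and stress genes, and with 10 it was −0.35 for keratinocyte markers. With 2 independent genes the 1-week medians were −1.23 for the selection genes and −0.33 for keratinocyte markers.

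Among values 2-fold or more apart, signs changed in keratin-poor cells for Clca3a2 (0.045), Krt1 (1.46), Krt10 (1.32) and Nppb (−1.54) at 1 day and for Fgfr1 (−1.31) and Tyr (0.18) at 1 week. Krt1 and Krt10 had helped to choose the keratin-poor cells. Signs also changed for Htra1 (−0.037) at 1 day without the deepest 10%, for Krt6a (−1.21) at 1 week with free RNA subtracted and for Jag1 (−0.66) at 1 week as a mean. Unthinned, Ptgds was found in 89.8% of 1-day control and 72.2% of 1-day deleted melanocytes, Kit in 34.1%, 34.7% and, at 1 week deleted, 64.9%, and the G2 and mitosis genes in 14.8% and 22.2% at 1 day and in 27.0% and 21.6% at 1 week. Thinned to 2000 UMIs, Kit was found in 7.84% and 16.7% of control and deleted melanocytes at 1 day and in 47.1% and 47.8% at 1 week, Ptgds in 54.9% and 51.7% and in 70.6% and 65.2%, and the G2 and mitosis genes in 5.88% and 4.35% at 1 week.

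With 37 to 88 cells per library, genes under 50 UMIs in both sums together were not compared. Differences between mice cannot be told apart from differences between genotypes.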

Other observations

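Hashtags 1 and 3 led in 20 and 21 of the 88 melanocytes of the 1-day control and in 7 and 17 of the 72 melanocytes of the 1-day deleted library. Hashtag 4 had 2256 and 1425 UMIs in all and led in 0 melanocytes.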
